A study of Mus musculus with 6 samples.

Results

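Matrix metalloproteinases (MMPs), ADAM and ADAMTS proteases, the ADAMTS-like proteins and the tissue inhibitors of metalloproteinases (TIMPs) were followed in RNA-Seq data of craniofacial tissue from *Rbfox2* mutant and control mouse embryos at E12.5. Members were taken by gene name from the deposited table, which gave 84 of 38553 genes, namely 23 *Mmp*, 33 *Adam*, 19 *Adamts*, 5 *Adamtsl* and 4 *Timp* genes. The 3 control samples are labelled *Rbfox2 flox/flox*, with no Cre. The 3 *Rbfox2* mutant samples are *Pax3Cre/+:Rbfox2 flox/flox*, so both groups shared the floxed alleles, and the groups differed in the *Pax3Cre* knock-in allele as well as in the deletion. The *Pax3* promoter drives Cre in neural crest cells, paraxial mesoderm and somite derivatives, and epithelium, vessels and brain in the dissected tissue keep the gene where they do not descend from *Pax3*-expressing cells. The mice were kept on mixed backgrounds, each library is labelled as a separate biological replicate, and pooling of embryos is not stated in the sources used here.

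MMPs are zinc-dependent proteases that cut collagens and other proteins of the extracellular matrix. ADAMs are membrane proteases that shed the outer part of receptors, ligands and adhesion molecules, although several members have lost the zinc-binding site and act in adhesion. ADAMTS proteases are secreted and cut proteoglycans or the propeptides of collagens, ADAMTS-like proteins share their ancillary domains and lack the protease domain, and TIMPs bind and block metalloproteinases. In the embryonic face these genes are known for roles in matrix remodelling during migration of neural crest cells, growth of the palate shelves and formation of cartilage and bone.

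Rbfox proteins bind the RNA sequence UGCAUG, and the transcripts of the members were searched for it as TGCATG, on the sense strand only. The search covered the 3′ UTR of the protein-coding GENCODE transcript with the longest coding sequence, and no genome sequence was used here, so introns were not searched. Among the members with an FPKM that passed a filter of 1 (explained below), 34 had a 3′ UTR of at least 500 bases. Of them 7, or 20.6%, held TGCATG in its first 500 bases, against 14.9% of all 12995 genes with a 3′ UTR of that length. Those genes were taken whether or not they passed the filter of 1, and a share over genes past the filter is not given here. Sites of some members described below are shown as examples, as 30 bases with the motif in capitals. Other members hold sites that are not shown, among them *Timp2* at bases 1154 and 1923 of its 3′ UTR and *Timp3* at base 562. *Adam22* and *Adam23* hold 4 sites each and *Adamts9* holds a further site at base 749 of its 3′ UTR, and for these genes the site nearest the stop codon is shown.
Adamts2, chr11:50804140-50804169, plus strand: gaaggtttggaaTGCATGgaaaatggtaca
Adamts1, chr16:85794368-85794397, minus strand: gttactatgaatTGCATGtactttataagt
Adamts9, chr6:92774196-92774225, minus strand: atatttctgccaTGCATGtaaagtttccta
Adamts17, chr7:67150882-67150911, plus strand: tgaaacgggacaTGCATGgtccacgggttg
Mmp2, chr8:92853216-92853245, plus strand: gtctgacatcgcTGCATGatgcatctcagc
Adam22, chr5:8078374-8078403, minus strand: taatggataatcTGCATGacagaaatatgt
Adam23, chr1:63593103-63593132, plus strand: aagggtaaaaacTGCATGgcatatataaca
The coordinates are those of GRCm38. The motif begins at base 123 of the 3′ UTR in *Adamts2*, 369 in *Adamts9*, 295 in *Adam22* and 459 in *Adam23*, and beyond the first 500 bases in *Adamts1*, *Adamts17* and *Mmp2*. A share of all genes with a site beyond the first 500 bases is not given here, so those sites cannot be set against a background. The other members with a site in the first 500 bases were *Adam19*, *Mmp9* and *Adam9*. No TGCATG was found in the 3′ UTR of *Mmp14*, *Mmp11*, *Adam10*, *Adam17* or *Adamts20*, which in *Adamts20* has only 137 bases. *Adam8*, *Adamts10* and *Adamts15* also held none, with log2 fold changes (mutant minus control) of -0.25, -0.17 and -0.14. *Adam9*, *Mmp17* and *Adamts3*, at -0.057, -0.012 and 0.00028, did hold sites. Whether sites go with differences between the groups was not tested. A match is a description of the letters and does not show binding.

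Upstream sequences from RefSeq (GRCm38.p6) were found for 26 of the 41 members that passed the filter of 1, in 29 windows of 240 bases that end shortly before the annotated start of transcription. A GC box (GGGCGG on either strand), a common element of promoters without a TATA box, was in 17 of the 29 windows, or 58.6%, against 55.6% of the 12511 windows of all genes that passed the filter and 31.3% of all 32851 windows. An AP-1 site (TGANTCA), known from promoters of secreted MMPs such as collagenases and stromelysins, was in 1 of the 29 windows, a window of *Adam19*, against 3.94% of the windows of genes past the filter and 6.58% of all windows. An E-box (CACGTG), bound by basic helix-loop-helix factors, was in 3 windows, 1 each of *Adam10*, *Adam19* and *Adamts17*, against 7.59% of the windows of genes past the filter and 5.69% of all windows. A TATA box (TATAAA, searched on the sense strand) was in 2 windows, those of *Adamts1* and *Adamtsl2*, against 3.60% of the windows of genes past the filter and 7.40% of all windows. The windows of *Mmp14*, the member with the highest FPKM, of *Adamts2*, the member with the largest difference between the groups among those that passed a filter, and of *Adamts1*, with both a GC box and a TATA box, are printed with these motifs in capitals.
Mmp14, chr14:54431348-54431587, plus strand: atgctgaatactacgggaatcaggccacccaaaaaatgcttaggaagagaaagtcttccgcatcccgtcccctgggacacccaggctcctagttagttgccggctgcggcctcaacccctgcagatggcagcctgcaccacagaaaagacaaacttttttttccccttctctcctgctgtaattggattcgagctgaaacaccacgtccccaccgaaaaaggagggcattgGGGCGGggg
Adamts2, chr11:50601835-50602074, plus strand: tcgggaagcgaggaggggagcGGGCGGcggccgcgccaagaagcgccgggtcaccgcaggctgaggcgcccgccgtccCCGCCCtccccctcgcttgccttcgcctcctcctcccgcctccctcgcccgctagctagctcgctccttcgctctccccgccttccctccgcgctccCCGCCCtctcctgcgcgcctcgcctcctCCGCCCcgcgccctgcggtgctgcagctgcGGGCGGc
Adamts1, chr16:85803124-85803363, minus strand: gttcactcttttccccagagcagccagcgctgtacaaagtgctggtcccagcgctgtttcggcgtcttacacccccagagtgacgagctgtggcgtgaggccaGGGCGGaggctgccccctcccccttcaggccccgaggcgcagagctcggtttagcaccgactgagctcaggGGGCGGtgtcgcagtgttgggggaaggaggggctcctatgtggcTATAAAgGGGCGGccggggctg

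FPKM, the number of fragments per kilobase of a gene, scaled to the mapped fragments of the library, summed over all genes to between 528123 and 590174 per sample. *Rbfox2* was at an FPKM of 58.4, 65.0 and 61.3 in control replicates 1, 2 and 3 and at 38.1, 36.3 and 34.3 in mutant replicates 1, 2 and 3, so that the mutant mean was 58.8% of the control mean and the groups did not overlap. This is a log2 fold change of -0.75, with a standard error (SE) of 0.079 and an adjusted p of 0.138 in limma. Control replicate 1 and mutant replicate 1 stood apart from the other samples on the first principal component, which held 54.7% of the variance, at -19.1 and -17.0 against 7.55 to 11.0. Differences are therefore also given within the first replicates and within replicates 2 and 3. Comparisons within each replicate number, and fits with that number as a block, match samples by their labels. The expression values set apart only the first replicates as a pair. Y-linked genes were expressed in mutant replicates 1 and 2 and not in the other 4 samples, so the sex of the embryos was not balanced between the groups. All 6 markers of cranial mesenchyme were over an FPKM of 1 in every sample, and their sum was 355 to 406 in the controls against 323 to 399 in the mutants. The tissue also held neurons, muscle, cartilage, endothelium, epithelium, macrophages and blood. The summed FPKM of 6 neuron markers was 572 to 648 in the controls against 701 to 779 in the mutants, with no overlap, while 6 markers of skeletal muscle, of which *Ttn* was under 1 in every sample, summed to between 131 and 326 in the controls against from 126 to 186 in the mutants, with the highest sum in control replicate 2. In such bulk tissue fewer cells of a type cannot be told apart from less RNA per cell.

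To ask whether these proteases and inhibitors differed between *Rbfox2* mutants and controls, genes were kept where every sample of at least 1 group had an FPKM over 5, and were compared on log2(FPKM + 1) with limma, and log2 fold changes below are mutant minus control on this scale. Of the 84 members, 22 passed this filter, 21 of them in both groups and 1, *Adam22*, through the mutants only. An unadjusted p under 0.05 in limma was reached by 0 of the 22, against 1.66% of the 10061 genes tested, and after adjustment 0 members and 0% of all genes passed. In none of the 22 did the control and mutant values stand apart without overlap, which 5% of all genes tested showed (2.37% with the mutants lower). The log2 fold change was below 0 in 18 of the 22 members, against 47.2% of all genes tested. The differences were small, from -0.26 to 0.093 with a median of -0.068, beside a median of 0.0057 for all genes and a median standard error of 0.11 for the members. Another 19 members passed a filter of FPKM over 1 but not the filter of 5, and they were compared in a fit over all 13415 genes past the lower filter. Of these 19, 1 was lower in the mutants at an unadjusted p under 0.05, against 4.32% of the 3354 genes between the filters in either direction and 2.89% lower, and 0 passed the adjusted test in limma. In 16 of the 19 the log2 fold change was below 0, against 54.7% of genes between the filters, with a median of -0.066 beside -0.017.

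**Figure D1:**
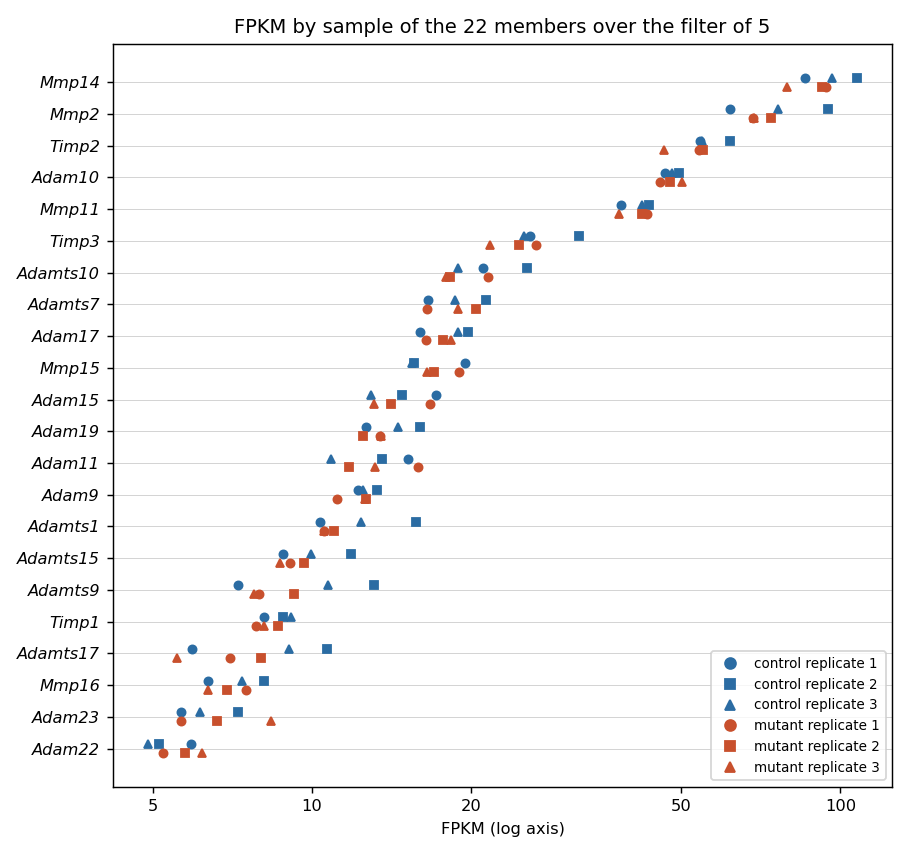
FPKM on a log axis for each of the 22 members over the filter of 5, with 1 point per sample, controls in blue and mutants in red and a marker shape for each replicate number. *Mmp14*, *Mmp2* and *Timp2* are at the top, the blue and red points overlap in every row, and control replicate 2 is the highest sample in 15 rows.

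**Figure D2:**
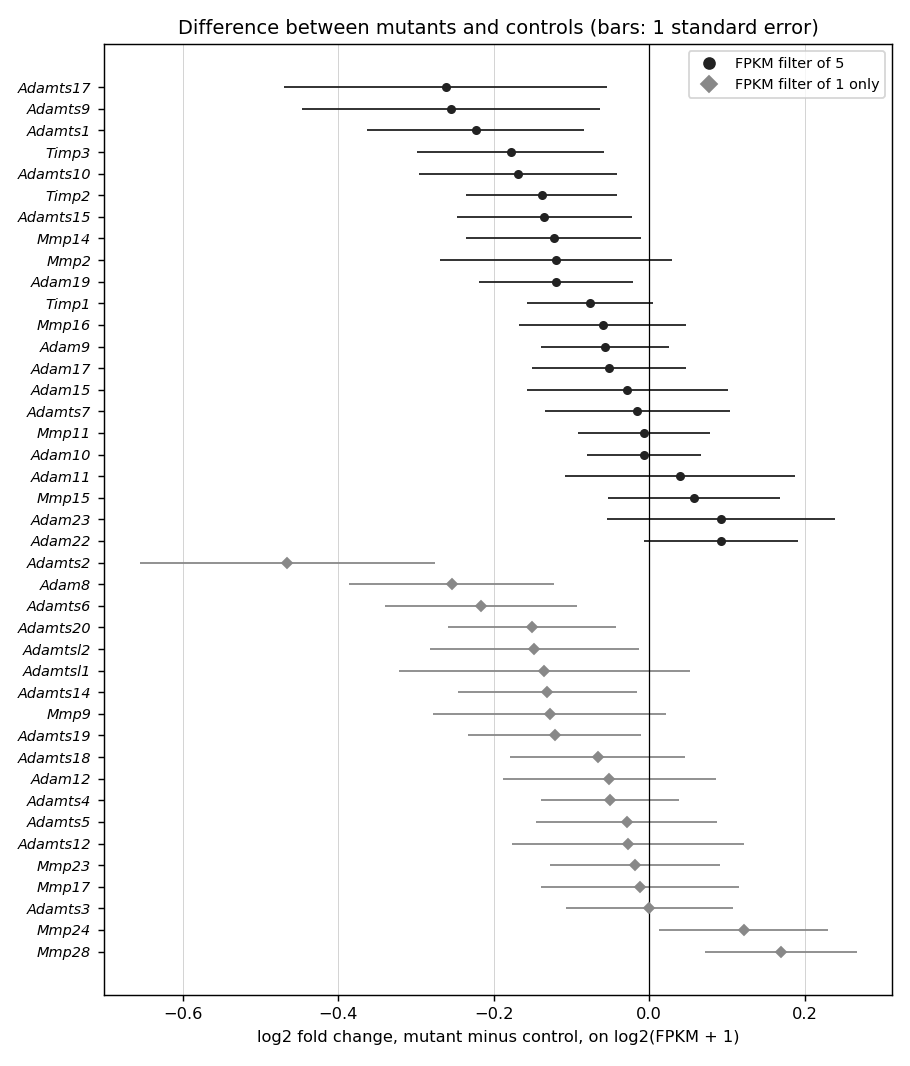
Log2 fold change, mutant minus control, of the 41 members that passed a filter, with bars of 1 standard error from limma. Black circles are members over the filter of 5 and grey diamonds are members over the filter of 1 only, and most points lie left of 0, with *Adamts2* farthest at -0.47.

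The MMPs held 42.1% of the summed FPKM of all members. *Mmp14*, the membrane-type protease that activates proMMP2 at the cell surface, was the highest member at an FPKM of 85.7, 108 and 96.5 in the controls against 93.9, 92.5 and 79.1 in the mutants. The groups overlapped, with a log2 fold change of -0.12 (SE 0.11, chr14:54431612-54445364). *Mmp2*, a gelatinase, was second at 62.0, 94.7 and 76.2 in the controls against 68.3, 74.1 and 68.7 in the mutants, and the log2 fold change was -0.12 (SE 0.15, chr8:92827291-92853420). *Mmp2* was below *Mmp14* in each of the 6 samples, at 0.723 to 0.881 of its FPKM. Both genes were lowest in control replicate 1 or mutant replicate 3 and highest in control replicate 2, so the spread among controls was wider than the difference between the groups. *Mmp11*, which lies on the minus strand and overlaps an exon of *Chchd10* on the other strand, was at 38.2 to 43.4 in all samples, with means of 41.3 ± 2.59 and 41.2 ± 2.64 (SD, n = 3 each). The membrane-type *Mmp15* and *Mmp16* had FPKM of 15.5 to 19.5 and 6.37 to 8.13 over the 6 samples and log2 fold changes of 0.058 and -0.060. Between the filters of 1 and 5 were *Mmp24*, *Mmp17*, *Mmp28*, *Mmp23* and *Mmp9*, with log2 fold changes between -0.13 for *Mmp9* and 0.17 for *Mmp28*. *Mmp28* was at 3.36, 2.99 and 2.97 in the controls against 3.71, 3.27 and 3.90 in the mutants, higher in the mutant in each replicate number, but mutant replicate 2 was below control replicate 1 (log2 fold change 0.17, SE 0.097, unadjusted p = 0.125 from limma). The other 13 *Mmp* genes did not pass the filter of 1. They include the collagenases *Mmp8* and *Mmp13*, which stayed at or under 0.153 and 0.0479 in every sample, and 3 genes, *Mmp1b*, *Mmp10* and *Mmp27*, listed at 0 in all 6 samples.

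Of the inhibitors, *Timp2*, which joins MMP14 and proMMP2 in a complex at the cell surface and also inhibits MMPs, was the highest at 54.3, 61.9 and 54.7 in the controls against 53.9, 54.9 and 46.4 in the mutants. The means were 57.0 ± 4.27 and 51.7 ± 4.68 (SD, n = 3 each), a log2 fold change of -0.14 (SE 0.097, unadjusted p = 0.198 from limma). *Timp3*, which binds to the matrix and inhibits ADAMs and ADAMTS proteases as well as MMPs, was at 25.9, 32.1 and 25.2 in the controls against 26.6, 24.7 and 21.7 in the mutants, a log2 fold change of -0.18 (SE 0.12). Mutant replicate 3 was the lowest sample and control replicate 2 the highest for both inhibitors, and the other values overlapped. *Timp1* was at 7.83 to 9.11 in the 6 samples, with a log2 fold change of -0.076. *Timp1*, *Timp3* and *Timp4* lie within synapsin genes transcribed from the opposite strand, and exons of *Timp3* and *Timp4* overlap exons of those genes. *Timp4* did not pass the filter of 1 and was at 0.0787 to 0.239. The 3 *Timp* genes that passed thus all had a log2 fold change below 0, and none of the 3 passed the test. The FPKM of *Mmp2* relative to *Timp2* was 1.14, 1.53 and 1.39 in the controls against 1.27, 1.35 and 1.48 in the mutants, and that of *Mmp14* relative to *Timp2* was 1.58 to 1.76 in the controls against 1.68 to 1.74 in the mutants. These ratios, chosen after the levels were seen, overlapped between the groups. The sum of all *Mmp* genes over the sum of all *Timp* genes was 2.62 to 2.86 in the controls against 2.84 to 2.97 in the mutants (exact two-sided permutation p = 0.30), and it was higher in the mutant of each replicate number.

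Among the ADAMs, *Adam10*, the sheddase of Notch receptors and cadherins, was the highest at 46.5, 49.5 and 48.0 in the controls against 45.6, 47.6 and 50.2 in the mutants. With means of 48.0 ± 1.51 and 47.8 ± 2.28 (SD, n = 3 each) it varied least of the members with an FPKM over 20, and its log2 fold change was -0.0065 (SE 0.074). *Adam17*, which sheds TNF and ligands of the EGF receptor, was at 16.0, 19.8 and 18.9 in the controls against 16.5, 17.7 and 18.3 in the mutants, and the log2 fold change was -0.052 (SE 0.098). The FPKM of *Adam10* was 2.51 to 2.91 times that of *Adam17* in the controls against 2.69 to 2.77 times in the mutants. *Adam9*, *Adam15* and *Adam19*, which are expressed in many tissues and are catalytically active, had log2 fold changes of -0.057, -0.028 and -0.12, each with overlap. The ADAMs that lack protease activity and act at neuronal surfaces, *Adam11*, *Adam22* and *Adam23*, were the 3 members of the family over the filter of 5 with a log2 fold change above 0, at 0.040, 0.093 and 0.092 with standard errors of 0.15, 0.099 and 0.15. None passed the test, and *Adam22* was over the filter through the mutants only, so its direction is tied to the filter. *Adam22* was at 5.91, 5.13 and 4.90 in the controls against 5.23, 5.76 and 6.19 in the mutants, and *Adam23* was at 5.64, 7.26 and 6.14 in the controls against 5.65, 6.62 and 8.38 in the mutants. Mutant replicate 3 was the highest sample for both. The 6 neuron markers, all over an FPKM of 1, summed to 615 in control replicate 3 and 742 in mutant replicate 3, and to higher values in every mutant than in any control, and their part in these values was not tested. *Adam12* and *Adam8* were between the filters. *Adam8* was at 1.84, 1.43 and 1.12 in the controls against 1.13, 1.14 and 0.898 in the mutants (log2 fold change -0.25, SE 0.13), and mutant replicates 1 and 2 were above control replicate 3. Of the other 23 *Adam* genes, many of which are known from testis, 11 were listed at 0 in all 6 samples.

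Among members that passed a filter, *Adamts2*, *Adamts9* and *Adamts17* had the log2 fold changes farthest from 0. All 6 that passed the filter of 5 had a log2 fold change below 0, and so did 9 of the 10 between the filters, the exception being *Adamts3* at 0.00028. *Adamts9*, which cleaves versican, was at 7.24, 13.1 and 10.7 in the controls against 7.93, 9.24 and 7.77 in the mutants. *Adamts17*, linked to fibrillin microfibrils, was at 5.93, 10.7 and 9.06 in the controls against 7.01, 8.0 and 5.55 in the mutants. *Adamts1*, another versican-cleaving protease, was at 10.4, 15.7 and 12.4 in the controls against 10.5, 11.0 and 10.5 in the mutants. The 3 genes share a pattern in which control replicates 2 and 3 were above the mutants while control replicate 1 was below mutant replicate 1. Their log2 fold changes were -0.26, -0.26 and -0.22 with standard errors of 0.19, 0.21 and 0.14, and none of the 3 passed the test over all samples. *Adamts10*, *Adamts15* and *Adamts7* had log2 fold changes of -0.17, -0.14 and -0.015 and FPKM between 8.72 and 25.6. Exons of *Adamts7* and *Adamts9*, like those of *Mmp11*, *Adam15*, *Adam17* and *Adam19*, overlap exons on the other strand, and whether the counting used strand is not given in the sources used here. Leaving out control replicate 2 brought the log2 fold changes of *Adamts1*, *Adamts9* and *Adamts17* to -0.076, -0.081 and -0.10. Leaving out control replicate 1 in its place brought them to -0.36, -0.47 and -0.48, with an unadjusted p under 0.05 in limma for all 3, in a fit where 6.45% of all genes had one. Control replicate 2 was the highest control of these 3 genes and control replicate 1 the lowest, so these shifts arise by construction. The fit without control replicate 1 also keeps mutant replicate 1 without its counterpart, so no support can be drawn from its p-values.

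*Adamts2* (chr11:50602084-50807573, plus strand), the main procollagen I N-proteinase, which trims the amino-terminal propeptide of fibrillar procollagens, was the 1 member with an unadjusted p under 0.05 in its fit. Its FPKM was 4.49, 6.06 and 5.26 in the controls against 4.0, 4.42 and 2.40 in the mutants. All mutant values were below all control values, although mutant replicate 2 was close to control replicate 1, and mutant replicate 3 stood lowest. The mean was 5.27 ± 0.783 in the controls against 3.61 ± 1.06 in the mutants (SD, n = 3 each), or 68.4% of the control mean, with a log2 fold change of -0.47 (SE 0.19, unadjusted p = 0.0432, adjusted p = 1.0 from limma; exact two-sided permutation p = 0.10, the smallest that 3 samples against 3 can give). In a fit without a filter the unadjusted p in limma was 0.0639, and it was also no longer under 0.05 without control replicate 2 or without mutant replicate 3. It was 0.0224 in limma with the replicate number as a block and 0.0277 in replicates 2 and 3 only, with adjusted p of 0.758 and 0.445. *Adamts2* was lower in the mutant of each replicate number, by -0.14, -0.38 and -0.88. Mutant replicate 3 carried much of the difference, which was -0.26 without it and -0.60 without mutant replicate 2. It was -0.88 with Y-linked expression as a covariate. That value rests in effect on mutant replicate 3, the only mutant that lacked Y-linked expression as the controls did. The other procollagen N-proteinases, *Adamts3* and *Adamts14*, were at 2.02 to 2.55 and 0.810 to 1.42, with log2 fold changes of 0.00028 and -0.13. *Adamts2* relative to the sum of *Adamts3* and *Adamts14*, a ratio chosen after the values were seen, was 1.45, 1.53 and 1.45 in the controls against 1.23, 1.25 and 0.725 in the mutants, with no overlap. *Adamts20*, known from the belt phenotype in which migration of pigment cells is impaired, was the other member between the filters without overlap, a pattern that 8.83% of the genes between the filters showed in either direction and 5.22% with the mutants lower. It was at 4.11, 4.38 and 4.14 in the controls against 4.03, 3.11 and 4.01 in the mutants. Mutant replicates 1 and 3 were close to the lowest control, the log2 fold change was -0.15 (SE 0.11), and it was -0.054 without mutant replicate 2. The other ADAMTS genes between the filters, *Adamts4*, *Adamts5*, *Adamts6*, *Adamts12*, *Adamts18* and *Adamts19*, had FPKM from 1.62 to 5.39 and log2 fold changes from -0.22 to -0.027, all with overlap.

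**Figure D3:**
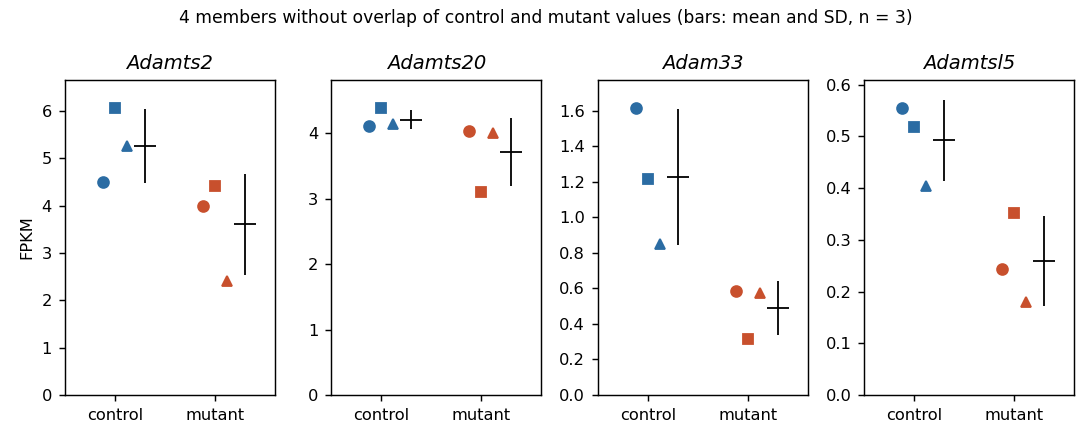
FPKM in each sample of *Adamts2*, *Adamts20*, *Adam33* and *Adamtsl5*, with circles, squares and triangles for replicates 1, 2 and 3, controls in blue and mutants in red, and black bars for the mean and SD of 3 samples. In each panel the 3 mutant points lie below the 3 control points, each vertical axis has its own scale from 0, and mutant replicate 3 of *Adamts2* is at 2.40.

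No *Adamtsl* gene passed the filter of 5. *Adamtsl1* was at 3.00, 5.44 and 5.10 in the controls against 3.64, 3.72 and 4.41 in the mutants, and *Adamtsl2*, a binding partner of latent TGF-β binding protein, was at 2.46, 2.95 and 2.75 in the controls against 1.82, 2.49 and 2.83 in the mutants. Both overlapped between the groups, with log2 fold changes of -0.14 (SE 0.19) and -0.15 (SE 0.13). Of the 43 members outside the filter of 1, 14 were listed at 0 in all samples, and 4 of the other 29 had no overlap between the groups, against 6.87% of 9648 such genes. They are named here after their values were seen. *Adam33* was at 1.61, 1.22 and 0.848 in the controls against 0.584, 0.317 and 0.574 in the mutants, with a mean 40.1% of that of the controls, and *Adamtsl5* was at 0.554, 0.519 and 0.403 in the controls against 0.243, 0.352 and 0.180 in the mutants, or 52.5%. In a fit over 23063 genes without a filter, their log2 fold changes were -0.57 and -0.25 with unadjusted p of 0.0080 and 0.0104 and adjusted p of 1.0 from limma. The exact two-sided permutation p was 0.10 for both. *Adamts13*, higher in the mutants, and *Adam1b*, listed at 0 in all 3 mutants, were at or under 0.112 and 0.0161 in every sample, where a value can rest on very few reads.

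Across the 41 members that passed a filter, 1 library was often the highest. Control replicate 2 had the highest FPKM of the 6 samples in 15 of the 22 members over the filter of 5, against 21.1% of all genes tested, and in 13 of the 19 members between the filters, against 26.8%. Over the filter of 5, the members with another highest sample were *Mmp15*, *Adam10*, *Adam15*, *Adam11*, *Adam22*, *Adam23* and *Timp1*. Over all 84 members the FPKM summed to 566, 685 and 602 in the controls against 587, 590 and 550 in the mutants, and control replicate 1 lay within the range of the mutants. The same library had the highest sums of markers of cartilage (254 against 174 to 232 in the other samples), bone (38.2 against 22.8 to 30.5), skeletal muscle (326 against 126 to 206), epithelium (216 against 115 to 179), endothelium (110 against 80.1 to 100.4) and cranial mesenchyme (406 against 323 to 399). It had the lowest sums of markers of neurons (572), neural progenitors (315), choroid plexus (13.5) and erythroid cells (3960), and the part of all these cells in the values of the members was not tested. Only 4 of the 6 cartilage markers, 4 of the 6 bone markers and 3 of the 4 choroid plexus markers were over an FPKM of 1 in every sample. The bone markers *Bglap* and *Ibsp* were under 1 in every sample. Without control replicate 2, the log2 fold change was below 0 in 12 of the 22 members over the filter of 5, with a median of -0.029 beside 0.011 for all genes. With any other sample left out it was below 0 in 17 or 18 of the 22. Control replicate 2 was picked for being the highest sample in most members, so leaving it out raises their differences by construction.

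**Figure D4:**
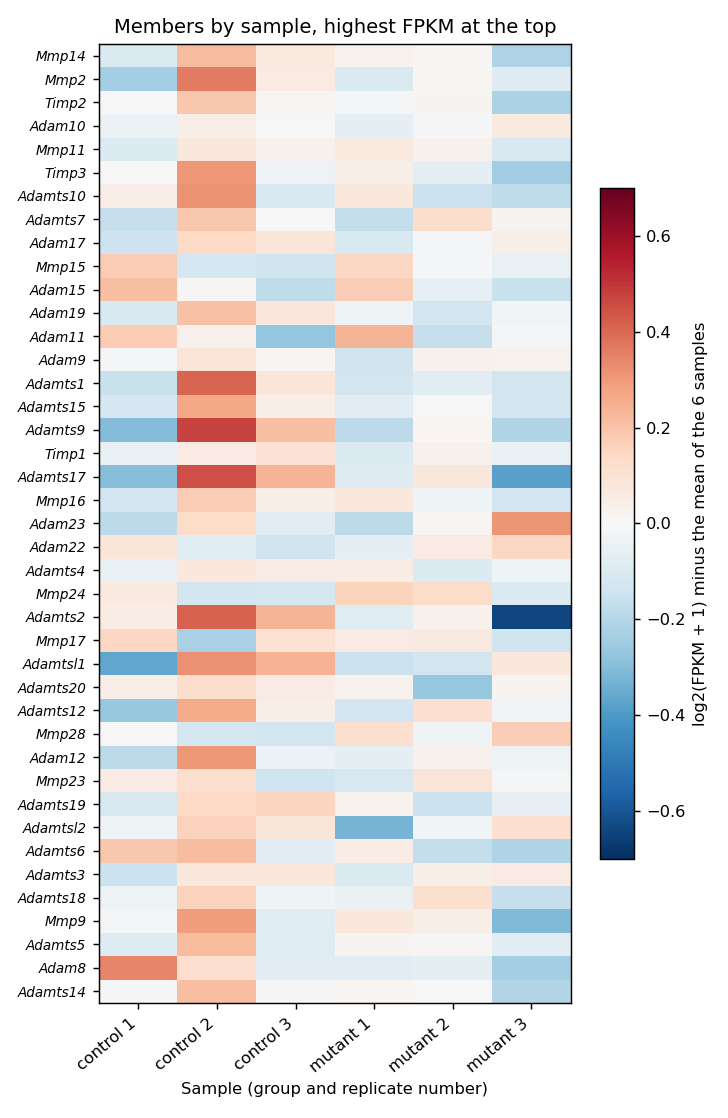
Deviation of log2(FPKM + 1) from the mean of the 6 samples for the 41 members that passed a filter, ordered by mean FPKM, with 1 column per sample. The column of control replicate 2 is mostly red (higher), and the darkest blue cell is *Adamts2* in mutant replicate 3.

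Within the sets of replicates the direction differed. Between the first replicates, the mutant was lower than the control in 8 of the 22 members over the filter of 5, against 54.6% of all genes tested, with a median difference of 0.033. In replicates 2 and 3, it was lower in both in 14 of the 22, against 27.3% of all genes, with a median difference of -0.15, and in 12 of the 19 between the filters, against 36%. A fit on replicates 2 and 3 only gave an unadjusted p under 0.05 in limma for 5 of the 22 members, *Mmp14*, *Adam19*, *Adamts1*, *Adamts9* and *Adamts17*, against 11.0% of the 10061 genes in that fit, and for none of them after adjustment. Their log2 fold changes in that fit were -0.25, -0.22, -0.35, -0.44 and -0.50, and between the first replicates the same genes stood at 0.13, 0.078, 0.022, 0.12 and 0.21. Only 2 of the 22 members, *Timp2* and *Timp1*, were lower in the mutant in each of the 3 replicate numbers, against 13.1% of all genes, and 0 were higher in each, against 13.6%. Between the filters 5 of the 19 were lower in each, *Adamts2*, *Adamts6*, *Adamts18*, *Adamts20* and *Adam8*, against 16.5%, and 2 were higher in each, *Mmp24* and *Mmp28*, against 11.9%. Whether the effect of the genotype differed between the sets was not tested.

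**Figure D5:**
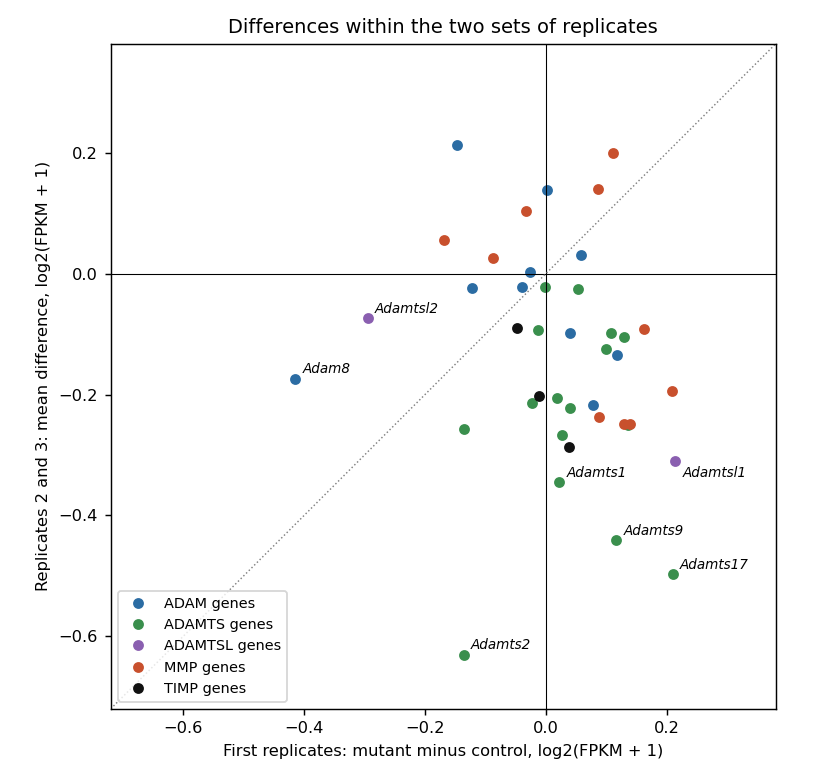
Difference of mutant minus control on log2(FPKM + 1) between the first replicates (horizontal axis) and as the mean of replicates 2 and 3 (vertical axis), with 1 point for each of the 41 members that passed a filter, coloured by family, and a dotted line of equality. The lower right quadrant holds more points than any other, among them *Adamts17* at 0.21 and -0.50, while *Adamts2* is below 0 on both axes.

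The genes around these families were taken from a list of 65, all in the table, of which 35 passed the filter of 5. In limma, 1 was lower and 1 higher in the mutants at an unadjusted p under 0.05, beside 0.954% and 0.706% of all genes tested, and 0 at an adjusted p under 0.05, with a median log2 fold change of -0.055. *Serpine2*, an inhibitor of plasminogen activators and thrombin, was at 48.9, 59.1 and 54.0 in the controls against 49.1, 45.5 and 42.7 in the mutants (log2 fold change -0.23, SE 0.097, unadjusted p = 0.0470 in limma), and mutant replicate 1 was above control replicate 1. *Tspan17*, a tetraspanin of the group that guides ADAM10 to the cell surface, was at 5.74, 5.27 and 5.05 in the controls against 6.63, 6.21 and 7.01 in the mutants without overlap (log2 fold change 0.26, SE 0.086, unadjusted p = 0.0185 in limma). *Rhbdf1*, an iRhom that carries ADAM17 to the cell surface, was at 15.3, 10.7 and 10.9 in the controls against 13.0, 9.74 and 8.35 in the mutants. The groups overlapped (log2 fold change -0.23, SE 0.19, unadjusted p = 0.262 in limma). It was lower in the mutant of each replicate number, as were 13.1% of all genes tested. With the replicate number as a block its unadjusted p in limma was 0.0212, in a fit where 6.0% of all genes had one under 0.05. That block matches replicates 2 and 3 by number alone. The 4 convertases that activate membrane-type MMPs and ADAMs, *Furin*, *Pcsk5*, *Pcsk6* and *Pcsk7*, all had a log2 fold change below 0, with a median of -0.065 and none past the threshold. *Reck*, a membrane-anchored inhibitor of MMPs, was at 15.2, 17.9 and 14.7 in the controls against 16.0, 13.8 and 12.6 in the mutants (log2 fold change -0.16, SE 0.11). Of the proteoglycans and other matrix substrates, 8 passed the filter and 7 had a log2 fold change below 0, with a median of -0.15 and none past the threshold. *Vcan*, the substrate of *Adamts1* and *Adamts9*, was at 30.5, 79.3 and 58.8 in the controls against 42.1, 47.0 and 53.4 in the mutants, again with control replicate 1 lowest and control replicate 2 highest. Shed membrane proteins had a median of -0.0040 over 7 genes.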

How the data were processed

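The authors prepared stranded poly(A) RNA libraries, aligned reads to GRCm38 with STAR and deposited FPKM values per gene, in 6 tables of single samples and in 1 table of all samples with the same values (0 differences). The processing notes also name FastQC 0.11.4 and Cuffdiff. The versions of STAR and Cuffdiff, the annotation and the counting step are not given in the sources used here. FPKM does not keep the reads behind a value, so counting error is unknown. Ratios of FPKM under 0.05 fell on 1 value in at most 31.2% of genes for any pair of samples, so whole reads were not recovered.

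Samples were grouped by their titles. Genes were tested on log2(FPKM + 1) in R 4.3.3 by limma 3.58.1, using its intensity trend, no covariate and Benjamini-Hochberg adjustment, after an FPKM filter of 5 in all samples of either group (the filter the methods give for Cuffdiff transcripts) or of 1 for lower members. The fit was tested on simulated data. Members over 5, members between 1 and 5 with an unadjusted p under 0.05 or without overlap, *Rbfox2*, the highest member of each family and related genes with an unadjusted p under 0.05 are named by rule, and other genes as examples. Members and lists were chosen with earlier results of these data known. The limma p-values set the difference between the groups against the spread between samples within a group. In the main fit that spread includes the split between the first replicates and the others. Deviations from group means of samples with the same replicate number correlated at 0.64, 0.26 and 0.51 across genes. Control replicate 3 also correlated with mutant replicate 2 at 0.40, and control replicate 2 with mutant replicate 3 at 0.23. Samples were paired by their replicate numbers, which the sources used here do not describe as pairs. These correlations set apart only the first replicates as a pair, so the matching of replicates 2 and 3 by number is arbitrary. Any support for the pairing comes from these same values. Coordinates are from GENCODE M21 (GRCm38), which held 95.0% of the gene identifiers. Alternatives were a pseudocount of 0.1, median ratio scaling, quantile normalization, filters of 1 and none, no trend, the replicate block, a term for the first replicates, replicates 2 and 3 only, a Y-linked covariate and each sample left out.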

Additional observations from a re-analysis of the deposited data

How the results depend on the processing

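Among the 16 alternatives, the count of members over the filter with an unadjusted p under 0.05, which was 0, became 1 with the filter of 1 (*Adamts2*), 2 without a filter (*Adam33* and *Adamtsl5*, with *Adamts2* no longer among them) and 5 in replicates 2 and 3 only. The share of all genes with such a p was 1.66% over the filter of 5 and 2.27%, 2.87% and 11.0% in these fits. It ran from 0 to 3 with a sample left out, the 3 being without control replicate 1, where 6.45% of all genes had such a p, and no member had an adjusted p under 0.05 in any of them. The median log2 fold change of the members stayed below 0, between -0.15 and -0.029. For members between the filters the count was 1 of 19 in the main fit, against 4.32% of the 3354 genes between the filters. This count became 2 in replicates 2 and 3 only. It ran from 0 (without control replicate 2 or mutant replicate 3) to 2 (without control replicate 1). The share of genes between the filters in those alternatives is not given here, so no rise over it can be read. The count of 2 related genes became 1 with quantile normalization, 1 with the Y-linked covariate and 13 in replicates 2 and 3 only, and ran from 0 to 8 with a sample left out, the 8 being without control replicate 1. With the replicate block, 0 members over the filter, 1 between the filters and 3 related genes (*Rhbdf1* in addition) had an unadjusted p under 0.05, as did 6.0% of all genes, and no member call changed. The log2 fold change of *Rbfox2* was -0.75 with a term for the first replicates and -0.82 in replicates 2 and 3 only, with adjusted p of 0.0296 and 0.0328 from limma. It was -0.79 to -0.71 with a sample left out, and in every other alternative its adjusted p from limma was above 0.05, from 0.0852 with the replicate block to 0.942 without mutant replicate 2.

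For 24 single members, 364 values under the alternatives kept their sign and 20 changed sign, and the cause was not tested. This count does not cover crossings of an unadjusted p of 0.05. Some of these members made such crossings, among them *Mmp14* in replicates 2 and 3 only and *Adamts2* without a filter. *Adam10* was at 0.0033 in replicates 2 and 3 only and at 0.064 with the Y-linked covariate. With that covariate *Adamts7*, *Adam17* and *Mmp15* were at 0.013, 0.013 and -0.022. The controls and mutant replicate 3 lacked Y-linked expression, so differences with this covariate rest in effect on mutant replicate 3. With a sample left out the log2 fold change ran from -0.27 to 0.032 for *Mmp2*, -0.041 to 0.026 for *Adam10*, -0.057 to 0.045 for *Mmp11*, -0.10 to 0.075 for *Adamts7*, -0.14 to 0.0061 for *Adam17*, -0.12 to 0.070 for *Adam15*, -0.084 to 0.14 for *Adam11*, -0.14 to 0.013 for *Mmp16* and -0.040 to 0.21 for *Adam23*. Where an arm held fewer samples, limma pools the spread over both groups. The depth behind single FPKM is unknown, which limits members under an FPKM of 1.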
